A study of Homo sapiens with 6 samples.

Results

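The genes described here are 9 enzymes that make, or keep clean, the building blocks of DNA and RNA. RRM1, RRM2, TYMS, TK1, DUT and DCTPP1 act on deoxynucleotides, and CTPS1, IMPDH2 and PAICS act in the synthesis of cytidine and purine nucleotides. They were picked by symbol from the 26485 symbols of the count tables. All 9 were found, and all 9 were among the 12937 genes that passed the filter on low counts. They were measured by RNA sequencing in AF22, an established line of human neural stem cells. In 3 libraries BMI1 and the transcript COMMD3-BMI1 were knocked down, and 3 libraries of the same line, labelled shControl with a WT genotype, served as controls. BMI1 is a subunit of a Polycomb complex that silences genes, and COMMD3-BMI1 is a read-through transcript that joins it to the gene before it. Beyond the name shControl the labels do not describe how the knockdown was made or for how long. AF22 is 1 cell line, so the libraries do not sample different people, and no label says whether each library had a culture of its own. A p-value here reflects how far these 6 libraries scatter, and that scatter may be technical.

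Cells obtain deoxynucleotides by reducing ribonucleotides or by salvaging nucleosides, and they need most of them in S phase, when DNA is copied. Ribonucleotide reductase, built of RRM1 and RRM2 subunits, carries out the reduction. TYMS and TK1 provide thymidylate by synthesis and by salvage, while DUT and DCTPP1 remove dUTP and deoxycytidine triphosphates. CTPS1 makes CTP from UTP, IMPDH2 opens the branch of purine synthesis that leads to guanine nucleotides, and PAICS carries out a pair of earlier steps of that pathway. Many genes of S phase are known targets of E2F factors, and the CCAAT box is a promoter element bound by NF-Y, common in genes of dividing cells.

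Promoter windows are shown for 4 of the deoxynucleotide genes, as examples of windows with E2F letters (TYMS and DUT) or with more than 1 CCAAT (RRM2 and TK1), chosen after the matches were seen. Sequences are from RefSeq (GRCh38.p14), reach from 250 bases before to 50 bases after an annotated start, and are written 5′ to 3′ on the gene's strand. Capitals mark matches, on either strand, to CCAAT or to the E2F letters TTTCCCGC, TTTGGCGC, TTTCGCGC or TTTGCCGC. The windows are RRM2 at chr2:10122489-10122788 on the plus strand, TK1 at chr17:78187003-78187302 on the minus strand, TYMS at chr18:657403-657702 on the plus strand and DUT at chr15:48331947-48332246 on the plus strand. Of the 9 enzymes 8 have windows in the RefSeq table. RRM2, TK1 and DUT each have more than 1, and those shown hold the most matches.
RRM2: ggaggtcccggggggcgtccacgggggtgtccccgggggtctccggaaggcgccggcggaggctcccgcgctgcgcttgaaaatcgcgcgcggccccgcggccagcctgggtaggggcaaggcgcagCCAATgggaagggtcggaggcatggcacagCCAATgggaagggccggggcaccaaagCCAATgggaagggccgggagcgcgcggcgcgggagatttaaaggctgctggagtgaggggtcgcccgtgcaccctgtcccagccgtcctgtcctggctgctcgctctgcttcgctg
TK1: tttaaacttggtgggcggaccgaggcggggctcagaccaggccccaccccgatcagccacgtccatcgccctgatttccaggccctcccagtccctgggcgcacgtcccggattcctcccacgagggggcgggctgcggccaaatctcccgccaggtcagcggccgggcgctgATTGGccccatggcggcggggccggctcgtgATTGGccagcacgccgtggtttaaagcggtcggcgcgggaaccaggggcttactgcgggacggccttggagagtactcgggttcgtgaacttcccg
TYMS: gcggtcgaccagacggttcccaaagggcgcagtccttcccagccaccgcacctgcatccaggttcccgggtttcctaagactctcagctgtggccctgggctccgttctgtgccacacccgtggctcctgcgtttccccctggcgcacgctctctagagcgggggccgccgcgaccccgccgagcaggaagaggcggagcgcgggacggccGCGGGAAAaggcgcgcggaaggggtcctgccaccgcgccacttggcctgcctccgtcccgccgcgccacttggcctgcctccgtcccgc
DUT: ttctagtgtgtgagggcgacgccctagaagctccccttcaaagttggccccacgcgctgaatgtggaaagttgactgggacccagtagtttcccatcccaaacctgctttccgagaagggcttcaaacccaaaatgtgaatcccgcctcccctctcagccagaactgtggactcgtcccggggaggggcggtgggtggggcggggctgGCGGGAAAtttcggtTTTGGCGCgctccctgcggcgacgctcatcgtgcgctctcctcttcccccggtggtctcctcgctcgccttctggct
The RRM2 window holds CCAAT at 123, 93 and 66 bases before the start. The TK1 window holds it on the other strand, as ATTGG, at 77 and 46 bases before the start. In TYMS the E2F letters GCGGGAAA, the other strand of TTTCCCGC, begin 39 bases before the start. DUT has the same letters at 42 bases and TTTGGCGC at 27 bases, on opposite strands. No match in these 4 windows overlaps another. Of 35116 promoter windows of all genes, 3.31% hold E2F letters at least once and 0.145% hold them 2 or more times. CCAAT is found at least once in 34.6% of windows, 2 or more times in 10.8% and 3 or more times in 3.26%. These shares are per window, and a gene with more than 1 window is more likely to hold a match in any of them. Of 9741 tested genes with a window, 659 held E2F letters and 4272 held CCAAT, 1594 of them with 2 or more CCAAT in 1 window. RRM1 has 1 CCAAT, 28 bases before its start, and neither motif was found in the windows of DCTPP1, CTPS1 and PAICS. The letters TTTGAA, an element of cell cycle genes called CHR, were found once in the RRM1 window and at 2 places in the DUT window, and in 15.2% of all windows. The E-box letters CACGTG were found once in a window of DCTPP1 and once in one of PAICS, and in 7.26% of all windows. A match describes letters only and does not show a bound site.

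Counts ran from 4962745 to 9640349 per knockdown library and from 5496683 to 6870122 per control library. Levels are given as CPM, the counts of a gene relative to the library's total, with totals scaled by TMM factors. BMI1 had 193, 159 and 250 counts in knockdown libraries 1 to 3, against 463, 582 and 606 in control libraries 1 to 3, and COMMD3-BMI1 had 0 counts in every library. The log2 fold change of BMI1 was -1.64 in a fit that pairs libraries by number (edgeR adjusted p = 0.00836) and -1.61 without pairing (edgeR adjusted p = 0.163). Knockdown library 2 stood apart, with a score of 40.2 on a first principal component that held 49.2% of the variance and scores of -25.5 to 11.5 for the other 5 libraries. Deviations from the group mean were correlated between knockdown and control libraries that share a number (0.563, 0.467 and 0.535, over genes). BMI1 and each enzyme are therefore given from 2 fits of edgeR's quasi-likelihood test, with Benjamini-Hochberg adjustment over all tested genes. One has the library number as a block (the paired fit) and the other is without it (the unpaired fit). Log2 fold changes of other genes are from the paired fit, and the unpaired fit called none of these genes. SOX2, NES and VIM, markers of neural stem cells, averaged 325, 869 and 2133 CPM in knockdown libraries, against 345, 1032 and 1899 CPM in control libraries. Of other markers on that list, HES5 had 0 counts throughout. PAX6 and SOX1 averaged 11.8 and 20.6 CPM in knockdown, against 14.7 and 25.8 CPM in control. PLAGL1 was called lower in the paired fit (log2 fold change -0.26, edgeR adjusted p = 0.038). PTPRC of leukocytes had 0 counts in all 6 libraries. The other leukocyte markers were low, with AIF1 at most at 5 counts and CD68 at 1.7 CPM in knockdown and 2.0 CPM in control. Among astrocyte markers S100B averaged 95.1 CPM in knockdown and 81.1 CPM in control, and AQP4 1.8 CPM in knockdown and 2.1 CPM in control. GFAP had at most 1 and ALDH1L1 at most 2 counts in any library. Of the pluripotent markers NANOG had 0 counts throughout, while POU5F1 averaged 66.3 CPM in knockdown and 76.1 CPM in control libraries and LIN28A 318 CPM in knockdown and 268 CPM in control. Of the neuron markers RBFOX3 had 0 counts throughout, and STMN2 had at most 2 and DCX at most 7 counts in any library. SYP and SNAP25 averaged 1.8 and 8.1 CPM in knockdown, against 2.6 and 7.6 CPM in control. MAP2 averaged 543 CPM in knockdown and 489 CPM in control. NEFL and TUBB3 averaged 168 and 140.1 CPM in knockdown, against 212 and 154 CPM in control.

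All 9 enzymes had a lower level in knockdown than in control in each of the 3 pairs, which holds for 26.7% of all tested genes. The paired fit called 5 of them lower at an adjusted p under 0.05: TK1, RRM2, RRM1, CTPS1 and TYMS. It called 5.39% of all tested genes lower and 4.63% higher. The median log2 fold change of the 9 was -0.32, beside -0.004 over all tested genes. The unpaired fit called none of the 9, and 0% of all tested genes, although 5 of the 9 had an unadjusted p under 0.05 there. For comparison, 7.88% of tested genes were lower at that unadjusted level. In bulk RNA, fewer cells in S phase and less RNA of these genes per cell cannot be told apart.

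**Figure D1:**
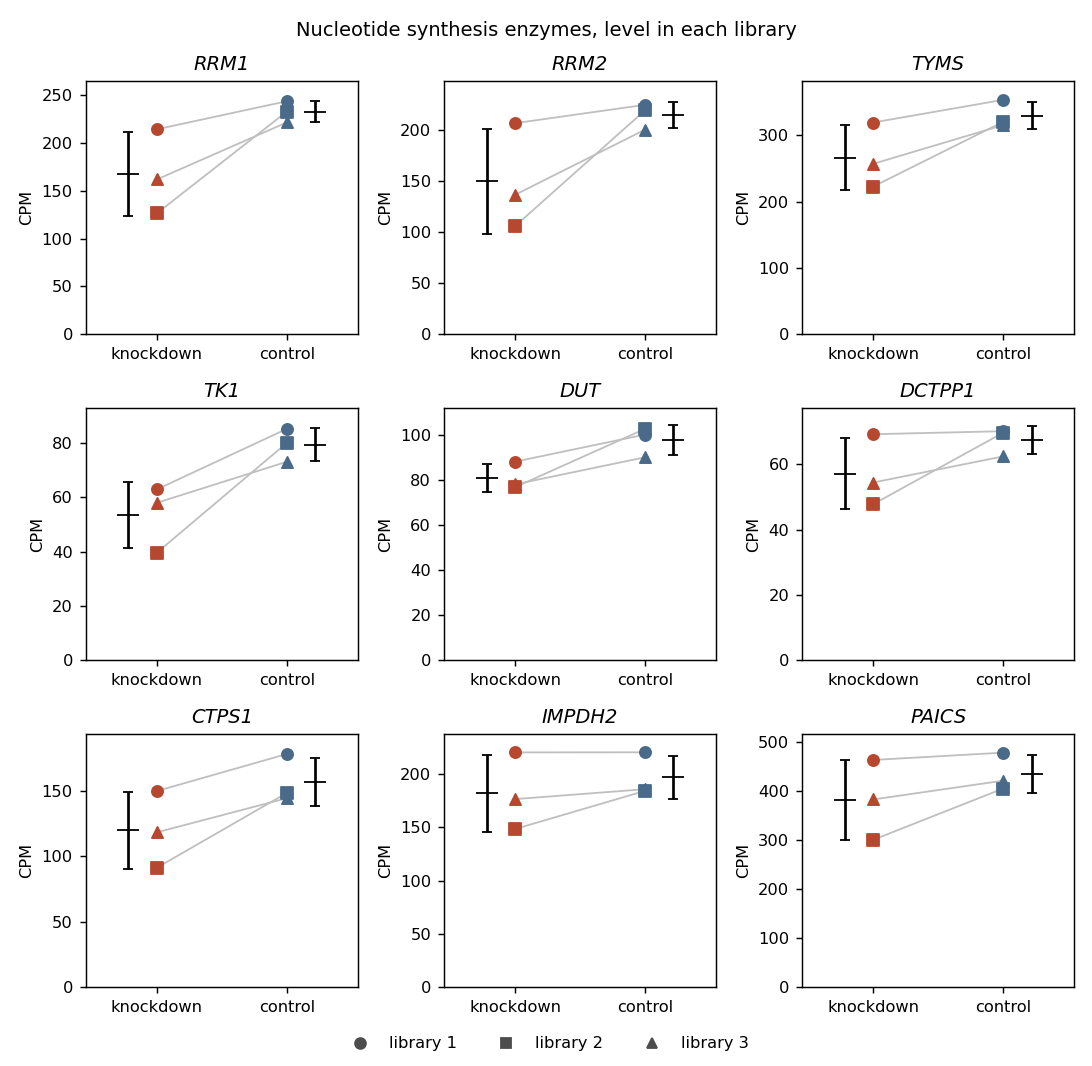
Level of each enzyme in CPM (vertical axes, from 0) in the 3 knockdown and 3 control libraries; grey lines join libraries of the same number, and bars beside the points give the mean ± SD. Every line runs upward from knockdown to control, by almost nothing for IMPDH2 in pair 1, and knockdown library 2 is the lowest of the 6 for all 9 enzymes.

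Both subunits of ribonucleotide reductase fell in the paired fit. Positions are those of GENCODE 29 on GRCh38. RRM1 (ENSG00000167325.14, chromosome 11, 4094707 to 4138876, plus strand), the large subunit that holds the catalytic site, had 214, 126 and 162 CPM in knockdown libraries 1 to 3, against 244, 233 and 222 CPM in control libraries 1 to 3. All 3 knockdown libraries lay below all 3 control libraries, library 1 only just. The means were 168 ± 44.3 CPM in knockdown and 233 ± 11.1 CPM in control (SD, n = 3 each), and the paired log2 fold change was -0.51 (SE 0.114, adjusted p = 0.0331 by edgeR's quasi-likelihood test). Without the block it was -0.48 (SE 0.171, adjusted p = 0.286).

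RRM2 (ENSG00000171848.14, chromosome 2, 10120698 to 10131419, plus strand), the small subunit whose level rises in S phase, had 206, 106 and 136 CPM in knockdown and 224, 219 and 200.0 CPM in control libraries 1 to 3. Knockdown library 1 was above control library 3, so the groups overlapped, while knockdown libraries 2 and 3 were far below. The means were 149 ± 51.7 CPM in knockdown and 214 ± 12.8 CPM in control (SD, n = 3 each). The paired log2 fold change was -0.57 (SE 0.142, adjusted p = 0.0416 by edgeR) and the unpaired one -0.53 (SE 0.212, adjusted p = 0.311). AC007240.1, a gene annotated on the same strand, overlaps 20.2% of the exon bases of RRM2, so reads there could belong to either. RRM2 had the widest range over pairs among the 9, with differences of -0.12, -1.05 and -0.55. The log2 ratio RRM1/RRM2 was 0.06, 0.26 and 0.25 in knockdown and 0.12, 0.09 and 0.15 in control libraries, and the groups overlapped (exact permutation p = 0.4, two-sided). RRM2B, the paralog known for supplying deoxynucleotides outside S phase, averaged 136 ± 15.7 CPM in knockdown and 135 ± 5.58 CPM in control libraries (paired log2 fold change 0.01, edgeR adjusted p = 0.968), and its sign was not stable across settings.

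The 2 thymidylate enzymes were also called lower. TK1 (ENSG00000167900.11, chromosome 17, 78174075 to 78187233, minus strand), the cytosolic thymidine kinase that is used as a marker of proliferation, had 62.9, 39.6 and 57.9 CPM in knockdown libraries 1 to 3. In control libraries 1 to 3 it had 85.1, 79.9 and 73.0 CPM. The groups did not overlap. TK1 averaged 53.5 ± 12.3 CPM in knockdown and 79.3 ± 6.06 CPM in control (SD, n = 3 each), or 67.4% of control. Its paired log2 fold change of -0.59 (SE 0.124, adjusted p = 0.0292 by edgeR) was the lowest of the 9, and the unpaired value was -0.57 (SE 0.163, adjusted p = 0.258). TK1 was also the one enzyme whose pair 1 difference, -0.43, was lower than that of pair 3, -0.33. TK2, the mitochondrial thymidine kinase, averaged 35.7 CPM in knockdown and 28.8 CPM in control libraries (paired log2 fold change 0.30, edgeR adjusted p = 0.0782).

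TYMS (ENSG00000176890.15, chromosome 18, 657604 to 673578, plus strand), thymidylate synthase, had 319, 223 and 257 CPM in knockdown and 354, 320.3 and 315 CPM in control libraries 1 to 3. Knockdown library 1 lay within the control range and the other 2 lay below it. The means were 266 ± 49.0 CPM in knockdown and 330 ± 20.8 CPM in control (SD, n = 3 each). The paired log2 fold change was -0.32 (SE 0.0796, adjusted p = 0.0407 by edgeR) and the unpaired one -0.31 (SE 0.135, adjusted p = 0.344). This call was lost with DESeq2 (adjusted p = 0.0736) and without pair 3 (edgeR adjusted p = 0.108). ENOSF1, on the opposite strand, overlaps 39.1% of the exon bases of TYMS. It had 65, 112 and 129 counts in knockdown and 78, 139 and 98 in control libraries, against at least 1544 for TYMS.

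DUT and DCTPP1, which degrade dUTP and deoxycytidine triphosphates, were lower without passing the test. DUT (ENSG00000128951.13, chromosome 15, 48331011 to 48343373, plus strand), the dUTPase, had 88.1, 76.8 and 78.1 CPM in knockdown and 100.1, 103 and 90.0 CPM in control libraries 1 to 3. The groups did not overlap, and DUT had the narrowest spread within knockdown, with means of 81.0 ± 6.20 CPM in knockdown and 97.6 ± 6.68 CPM in control (SD, n = 3 each). The paired log2 fold change was -0.27 (SE 0.0744, adjusted p = 0.0531 by edgeR), just outside the threshold, and the unpaired one was also -0.27 (SE 0.0937, adjusted p = 0.275). Under 3 other settings of the paired fit DUT passed the threshold, with edgeR adjusted p-values of 0.0429 with total counts only, 0.0305 with no filter on low counts and 0.0285 without pair 2. DESeq2 did not call it (adjusted p = 0.296), nor did limma voom (adjusted p = 0.0515). With RLE size factors or the filter of at least 1 CPM it did not pass either (edgeR adjusted p = 0.0541 and 0.053). GENCODE 29 lists 8 pseudogenes of DUT, 7 of PAICS, 3 of RRM2 and 2 of TYMS, and no pseudogene symbol of them was found in the tables used here. Reads of near-identical copies could have been added to or lost from these counts.

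DCTPP1 (ENSG00000179958.8, chromosome 16, 30423619 to 30430075, minus strand), the dCTP pyrophosphatase, had 69.3, 47.9 and 54.5 CPM in knockdown and 70.2, 69.7 and 62.5 CPM in control libraries 1 to 3. Library 1 hardly differed between the groups (-0.02 on the log2 scale), whereas knockdown library 2 was well below its control (-0.54). The means were 57.2 ± 11.0 CPM in knockdown and 67.5 ± 4.33 CPM in control (SD, n = 3 each), and the paired log2 fold change was -0.26 (SE 0.103, edgeR adjusted p = 0.145). The unpaired value was -0.25 (edgeR adjusted p = 0.45), and the paired value without pair 2 was -0.12. ZNF771 overlaps 42.1% of the exon bases of DCTPP1 on the opposite strand and had 172, 286 and 385 counts in knockdown and 203, 276 and 292 in control libraries, close to the 335, 354 and 520 counts of DCTPP1 in knockdown and 382, 451 and 433 in control. The strand setting of the counting is not given in the sources used here, so reads of the pair may not be cleanly separated.

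Of the 3 enzymes of base synthesis, CTPS1 alone was called lower. CTPS1 (ENSG00000171793.14, chromosome 1, 40979335 to 41012565, plus strand), CTP synthase, had 149.9, 91.2 and 118 CPM in knockdown and 178, 148 and 144 CPM in control libraries 1 to 3. Knockdown library 1 was above control libraries 2 and 3, and the other knockdown libraries were below all controls. The means were 119.8 ± 29.4 CPM in knockdown and 157 ± 18.5 CPM in control (SD, n = 3 each). The paired log2 fold change was -0.41 (SE 0.0925, adjusted p = 0.0331 by edgeR) and the unpaired one -0.39 (SE 0.173, adjusted p = 0.346). Its paralog CTPS2 averaged 62.3 CPM in knockdown and 58.4 CPM in control libraries (paired log2 fold change 0.09, edgeR adjusted p = 0.495).

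IMPDH2 (ENSG00000178035.11, chromosome 3, 49024325 to 49029408, minus strand), the IMP dehydrogenase of dividing cells, had 220.4, 148 and 177 CPM in knockdown and 220.5, 184 and 186 CPM in control libraries 1 to 3. Library 1 was level between the groups, and knockdown library 2 was the lowest of all 6. The means were 182 ± 36.3 CPM in knockdown and 197 ± 20.5 CPM in control (SD, n = 3 each), and the paired log2 fold change of -0.13 (SE 0.075, edgeR adjusted p = 0.294) was the smallest of the 9. The unpaired value was -0.12 (edgeR adjusted p = 0.749), and 0.01 with knockdown library 2 left out. The paired value without pair 2 was -0.04. IMPDH1, its paralog, averaged 14.2 CPM in knockdown and 15.7 CPM in control libraries (paired log2 fold change -0.13, edgeR adjusted p = 0.559).

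PAICS (ENSG00000128050.8, chromosome 4, 56435741 to 56464579, plus strand), a bifunctional enzyme of de novo purine synthesis, had 463, 300.2 and 383 CPM in knockdown and 478, 405 and 421 CPM in control libraries 1 to 3. The groups overlapped through knockdown library 1. The means were 382 ± 81.5 CPM in knockdown and 435 ± 38.5 CPM in control (SD, n = 3 each), with a paired log2 fold change of -0.20 (SE 0.082, edgeR adjusted p = 0.142) and an unpaired one of -0.19 (edgeR adjusted p = 0.604). The paired value was -0.10 without pair 2, and the unpaired one -0.04 without knockdown library 2. PPAT, the first committed enzyme of the same pathway, starts 125 bases away on the other strand. It averaged 79.0 CPM in knockdown and 92.0 CPM in control libraries (paired log2 fold change -0.26, edgeR adjusted p = 0.145). Its pair differences were 0.07, -0.49 and -0.35, and its value was -0.15 without pair 2 and -0.42 without pair 1, where it was called (edgeR adjusted p = 0.0269).

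**Figure D2:**
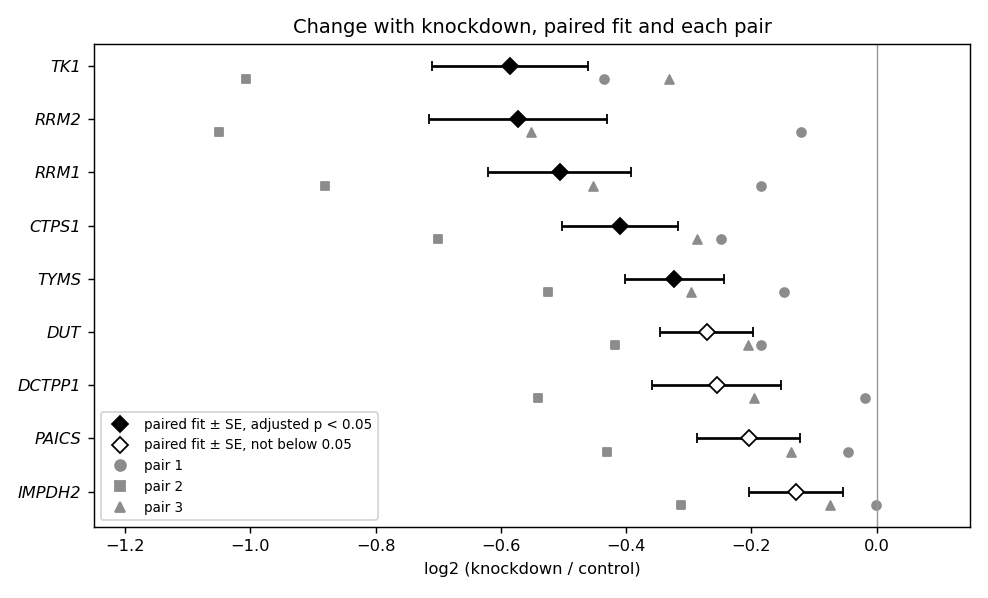
Log2 fold change of knockdown over control for each enzyme (horizontal axis), as the paired fit with its SE (diamonds, filled where the adjusted p is under 0.05) and as the difference in each pair (grey). TK1, RRM2, RRM1, CTPS1 and TYMS are filled, and pair 2 gives the lowest value for all 9 enzymes.

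The 3 pairs ranked alike for nearly all of the 9 enzymes. Pair 2 gave the lowest difference for all 9, and pair 1 the one nearest to 0 for 8 of 9. The median difference of the 6 deoxynucleotide enzymes was -0.17, -0.71 and -0.31 in pairs 1, 2 and 3, and that of the 3 base synthesis enzymes was -0.05, -0.43 and -0.14. With pair 2 left out, the median log2 fold change of the 9 was -0.23 and the paired fit called 6 of them lower, DUT in addition to the 5. Calls were more frequent in general in that fit, with 1098 of 12846 tested genes lower, against 697 of 12937 with all pairs. The 5 had smaller changes without pair 2, with log2 fold changes of -0.38 for TK1, -0.35 for RRM2, -0.33 for RRM1, -0.27 for CTPS1 and -0.23 for TYMS. With knockdown library 2 left out, the unpaired median was also -0.23, and no enzyme was called. The summed level of the 9 was 1794, 1159 and 1423 CPM in knockdown libraries 1 to 3, against 1954, 1762 and 1714 CPM in control libraries 1 to 3. Knockdown library 1 thus lay inside the control range of the sum, and the other 2 lay below it. For 3 of the 9, RRM1, TK1 and DUT, every knockdown library was below every control library, which holds for 11.2% of tested genes.

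Because a ratio within a library does not depend on how libraries are scaled, all 36 ratios of 2 of the enzymes were also compared. In 16 of them the knockdown and control libraries did not overlap, which gives an exact two-sided permutation p of 0.10, the smallest that 3 against 3 libraries allow, and 0.23 after Benjamini-Hochberg adjustment over the 36. The 36 ratios share enzymes and are not independent. The share without overlap among ratios of other genes was not computed, so the count of 16 has nothing to be judged against. The examples that follow were chosen after their values were seen. Log2 CTPS1/IMPDH2 was -0.56, -0.70 and -0.58 in knockdown libraries and -0.31, -0.31 and -0.36 in control libraries. All 3 knockdown libraries, library 1 included, lay below all 3 control libraries. Log2 CTPS1/PAICS was -1.63, -1.72 and -1.69 in knockdown libraries, against -1.42, -1.45 and -1.54 in control libraries. Log2 TK1/DUT was -0.49, -0.95 and -0.43 in knockdown libraries, against -0.24, -0.36 and -0.30 in control libraries. The largest mean difference was that of TK1/IMPDH2, whose log2 ratio averaged -1.77 ± 0.15 in knockdown and -1.31 ± 0.09 in control (SD, n = 3 each). None of these differences could have passed the adjusted exact test. It sets the 3 libraries of each group against each other without pairing and cannot give a p below 0.10.

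**Figure D3:**
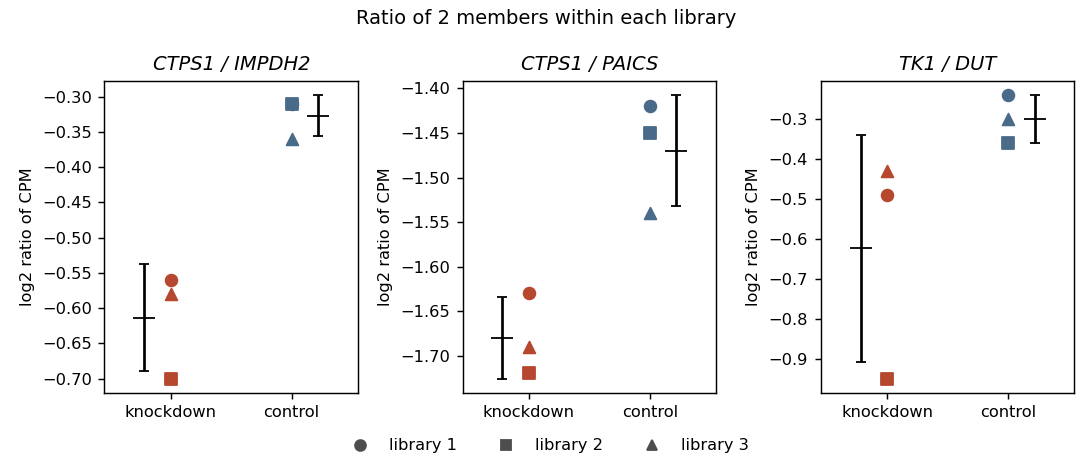
Log2 ratio of the CPM of 2 enzymes within each library (vertical axes, which do not start at 0) for CTPS1/IMPDH2, CTPS1/PAICS and TK1/DUT, in knockdown and control libraries; bars beside the points give the mean ± SD. In each of the 3 ratios all knockdown libraries lie below all control libraries.

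Levels of the enzymes can be compared with each other only per length. Divided by the length of the longest principal transcript, TYMS was highest, at 160.2 ± 29.5 CPM per kb in knockdown and 198 ± 12.5 CPM per kb in control. IMPDH2 followed, at 111 CPM per kb in knockdown and 119.8 CPM per kb in control. Neither overlapped the enzyme below it in the control libraries. RRM1 averaged 54.5 CPM per kb in knockdown and 75.7 CPM per kb in control, PAICS 59.0 CPM per kb in knockdown and 67.1 CPM per kb in control, and RRM2 43.6 CPM per kb in knockdown and 62.5 CPM per kb in control. In that order each overlapped the next over the control libraries. DCTPP1 was below RRM2 without overlap in control. DCTPP1, CTPS1, TK1 and DUT formed the lower end, with knockdown means of 46.8, 37.4, 32.8 and 37.7 CPM per kb and control means of 55.2, 49.1, 48.7 and 45.5 CPM per kb, and each overlapped the next over the control libraries. In knockdown, PAICS thus averaged above RRM1, and DUT above TK1 and CTPS1, within spreads that overlapped.

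The other genes of nucleotide metabolism were described by 6 lists of 77 genes, of which 74 were tested. The paired fit called 9 of the 74 lower and 3 higher, beside 5.39% lower and 4.63% higher over all tested genes. The median log2 fold change of the 74 was -0.12. The folate one-carbon list, which supplies TYMS and purine synthesis with carbon units, had 5 of 15 tested genes called lower and none higher (median -0.36). MTR, methionine synthase, averaged 56.0 ± 10.8 CPM in knockdown and 92.0 ± 12.4 CPM in control libraries (paired log2 fold change -0.72, edgeR adjusted p = 0.0158). SHMT1 and MTHFD1, which load and interconvert folate carbon units, were called lower too, with paired log2 fold changes of -0.66 and -0.46 (edgeR adjusted p = 0.0266 and 0.0268). MTHFD2, a mitochondrial counterpart, was called as well and is named because the count is small (-0.42, edgeR adjusted p = 0.0433).

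In de novo pyrimidine synthesis, upstream of CTPS1, 1 of 4 genes was called lower, beside 5.39% of all tested genes. UMPS, which completes UMP, averaged 58.3 CPM in knockdown and 73.5 CPM in control libraries (paired log2 fold change -0.34, edgeR adjusted p = 0.0349). DHODH, the mitochondrial step before it, averaged 10.6 CPM in knockdown and 14.96 CPM in control, without overlap (-0.51, edgeR adjusted p = 0.0502). It passed under 5 other settings of the paired fit (adjusted p of 0.0184 to 0.049). With DESeq2 (adjusted p = 0.33) and with RLE size factors (edgeR adjusted p = 0.0511) DHODH did not pass. CAD, which starts the pathway, did not pass (-0.14, edgeR adjusted p = 0.212). In de novo purine synthesis, around PAICS and IMPDH2, 1 gene of 11 was called lower, a count near the 5.39% over all tested genes. This was PFAS, at 94.8 CPM in knockdown and 123 CPM in control (-0.38, edgeR adjusted p = 0.0308). GMPS, which follows IMPDH2, averaged 139.8 CPM in knockdown and 161.5 CPM in control (-0.22, edgeR adjusted p = 0.0825). PRPS2, which makes the sugar donor of the pathway, and ADSS, on the adenine branch, did not pass either (-0.37 and 0.21, edgeR adjusted p = 0.114 and 0.129).

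Of 23 kinases, transporters and other genes of deoxynucleotide supply, 2 were called lower, 1 was called higher and 20 did not pass (median -0.04), shares near those over all tested genes given above. DTYMK, which phosphorylates the thymidylate made by TYMS and TK1, averaged 60.3 CPM in knockdown and 82.4 CPM in control libraries (-0.48, edgeR adjusted p = 0.0457). UCK2, a uridine and cytidine kinase, averaged 68.6 CPM in knockdown and 85.3 CPM in control (-0.32, edgeR adjusted p = 0.0398). AK4, a mitochondrial adenylate kinase, rose to 52.9 ± 14.3 CPM in knockdown, against 31.4 ± 3.90 CPM in control (0.75, edgeR adjusted p = 0.0211). Genes of breakdown and pool cleaning had 2 of 14 called higher and none lower, beside 4.63% higher and 5.39% lower over all tested genes. The 2 were NT5E, the surface enzyme CD73 that makes adenosine (479.7 CPM in knockdown and 374 CPM in control, 0.35, edgeR adjusted p = 0.0256), and DPYD, which starts pyrimidine breakdown (29.5 CPM in knockdown and 21.8 CPM in control, 0.44, edgeR adjusted p = 0.0361). NUDT1, which like DCTPP1 removes unwanted nucleotides, did not pass (-0.37, edgeR adjusted p = 0.0861). None of 7 tested genes of purine salvage and breakdown was called by the paired edgeR test, and the 4 with the smallest p were ADA (0.32, adjusted p = 0.0796), AMPD2 (0.24, 0.142), PNP (-0.24, 0.269) and ADK (-0.17, 0.274). AK3, another adenylate kinase of mitochondria, was at 0.23 (edgeR adjusted p = 0.0649). The calls of UCK2, DTYMK, UMPS, PFAS and DPYD were lost with DESeq2, where adjusted p-values lay between 0.0573 and 0.2. That of DTYMK was also lost with a trend in GC content and transcript length removed (edgeR adjusted p = 0.0514). Without pair 3 those of UCK2, UMPS, NT5E and DPYD were lost (edgeR adjusted p of 0.11 to 0.119), and without pair 1 those of UCK2 and DPYD (0.0521 and 0.0686). Without pair 2 the log2 fold changes of DTYMK and MTHFD2 were -0.31 and -0.25. The unpaired edgeR fit called none of the 74 genes. Of the 74, 13 had an unadjusted p under 0.05 there in either direction, beside 1869 of all 12937 tested genes.

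**Figure D4:**
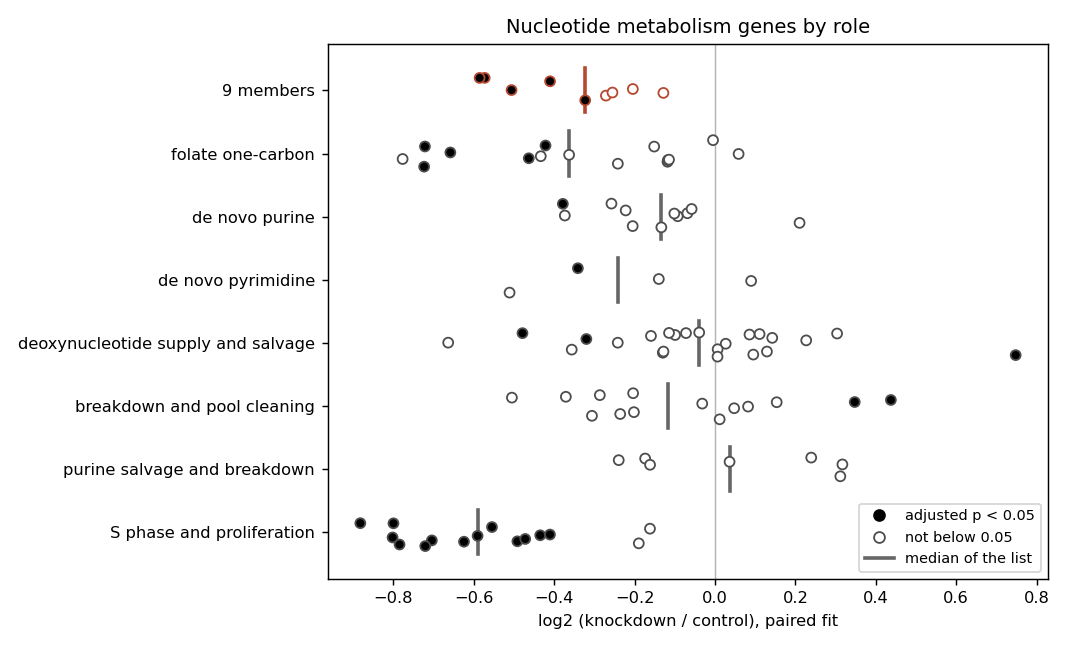
Paired log2 fold change of knockdown over control (horizontal axis) for every tested gene of each list, with the median of the list as a vertical bar; filled points have an adjusted p under 0.05. The 9 enzymes are all left of 0 with a median of -0.32, the S phase list lies further left at -0.59, and the salvage lists spread to both sides of 0.

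Genes of S phase and proliferation were lower in the same libraries. The paired fit called 13 of the 15 listed genes lower and none higher, beside 5.39% lower and 4.63% higher over all tested genes. The median log2 fold change of the list was -0.59. The unpaired edgeR fit called none of the 15, with 11 at an unadjusted p under 0.05. MKI67, the Ki-67 antigen, averaged 215 CPM in knockdown and 383 CPM in control libraries (-0.88, edgeR adjusted p = 0.0222). E2F1 averaged 53.6 CPM in knockdown and 90.3 CPM in control (-0.80, edgeR adjusted p = 0.0256). The summed level of the list was 3097, 1709 and 2125 CPM in knockdown libraries 1 to 3, and 3600, 3253 and 2965 CPM in control libraries 1 to 3. As for the 9 enzymes, knockdown library 1 lay within the control range and library 2 was the lowest. The 6 fibroblast markers summed to 337, 491 and 381 CPM in knockdown and 308, 399 and 324 CPM in control libraries, with DCN, a defining one, at 2.72 to 8.52 CPM in knockdown and 2.45 to 5.33 CPM in control. The 3 endothelial markers summed to 34.5, 44.3 and 55.8 CPM in knockdown and 32.9, 44.1 and 34.8 CPM in control. CDH5 among them was called higher (24.3 CPM in knockdown and 16.5 CPM in control, 0.55, edgeR adjusted p = 0.0434). PECAM1 and TEK did not pass, at 0.30 and -0.62 (edgeR adjusted p = 0.202 and 0.234). The 2 tested oligodendrocyte lineage markers summed to 18.8, 38.9 and 14.3 CPM in knockdown and 15.99, 15.9 and 12.1 CPM in control. PDGFRA was at 0.80 and OLIG2 at -0.12 (edgeR adjusted p = 0.0527 and 0.806), so neither was called. The part of these values in the changes of the enzymes was not tested.

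Among all tested genes whose promoter windows hold E2F letters (659 genes, TYMS and DUT among them), 92 were called lower and 11 higher in the paired fit, or 14% and 1.67%. Among the 9741 tested genes with any promoter window, 5.71% were called lower and 4.8% higher. For the 1594 genes with 2 or more CCAAT in 1 window, as in RRM2 and TK1, 10% were called lower and 4.52% higher. With CCAAT at least once the shares were 6.95% lower and 5.08% higher, with the CHR letters 9.16% lower and 6.01% higher, and with the E-box letters 5.43% lower and 4.11% higher. These shares are descriptions, given without a test.

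The genes whose 3 pair differences lay nearest to the median of the enzymes were found among 10429 other genes with a mean of at least 10 CPM. Nearest to the 6 deoxynucleotide enzymes were CARHSP1, MIS12, RCN1 and ASAP2, with root mean square distances of 0.008 to 0.022 on the log2 scale. CARHSP1 differed by -0.17, -0.72 and -0.31 in pairs 1, 2 and 3. Nearest to the 3 base synthesis enzymes were GART, TMEM261, EWSR1, AKAP2 and YES1, at 0.007 to 0.015. GART, another enzyme of de novo purine synthesis, differed by -0.06, -0.42 and -0.13. Likeness over 3 pairs says nothing of shared control.

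The lowest count of any of the 9 was 293, for TK1 in knockdown library 2, where counting alone gives an error of 5.84%, and the highest was 3652, for PAICS in knockdown library 3. The biological coefficient of variation of the 9 was estimated gene by gene with edgeR, apart from the quasi-likelihood tests. It was 6.35% to 12.40% with the library number as a block and 8.85% to 18.54% without it. These values were above the counting error of each gene at its lowest count. They are not the spread from which the p-values of the 2 fits were computed.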

How the data were processed

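Total RNA was made into directional libraries, per the labels' protocols. Groups and library numbers were read from the titles. Each library has 1 table, deposited by the authors, of raw whole-number read counts for 26485 symbols. The submitters' processing notes name the build hg38, STAR 2.7.10a, Trim Galore 0.6.6 and bedtools. What program, annotation and strand setting gave the counts is not given in the sources used here.

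The quasi-likelihood test of edgeR 4.0.16 (R 4.3.3) was run on the 12937 genes that filterByExpr keeps, after TMM scaling. Group was the only term (unpaired fit), or library number was added as a block (paired fit). Calls are at a Benjamini-Hochberg adjusted p of 0.05. Log2 fold changes are knockdown over control, and their SE is the size divided by the square root of F. CPM use TMM-scaled totals, and pair differences are differences of log2 CPM with a prior count of 2. The scripts were tested on simulated data. Library totals were 4962745, 7304714 and 9640349 counts in knockdown and 5496683, 6387898 and 6870122 counts in control libraries 1 to 3.

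The labels number both groups 1 to 3 and do not say what a number marks. Deviations from the group mean correlated at 0.563, 0.467 and 0.535 between same-numbered libraries and at -0.342 to -0.107 between others, across genes. All 3 were above the bound of 0.1, so libraries were treated as paired by number, on the evidence of the data and not of the labels. Within groups no libraries agreed within sampling noise.

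The 9 enzymes and the gene lists were chosen with earlier results of these data known. From each list the up to 4 genes of smallest paired p were named, with the paralogs of the enzymes and CAD, and PPAT as the neighbour of PAICS, and GART through likeness. Named S phase and marker genes are examples from their lists. Some genes that these rules name are not reported here. Gene positions, transcript lengths and overlaps are from GENCODE 29 (GRCh38) and promoter sequences from RefSeq. Alternatives were DESeq2 1.42.0, voom of limma 3.58.1, RLE size factors, scaling by total counts only, a filter of at least 1 CPM in 3 libraries, no filter, removal of a trend in GC content and transcript length (known for 94.9% of tested genes), thresholds of 0.01 and 0.1, and leaving out each library or pair.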

Additional observations from a re-analysis of the deposited data

How the results depend on the processing

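Every one of the 9 enzymes kept a negative log2 fold change under all alternatives of both fits, with the exception of IMPDH2 in the unpaired fit, which ranged from -0.271 to 0.008 when 1 library was left out. The paired calls rest on the replicate block: with it 5 enzymes and 1296 genes were called, and without it 0 enzymes and 0 genes (1869 at an unadjusted p under 0.05). In the unpaired fit the count of genes was 2 with no filter on low counts and 142 with DESeq2, none of them among the 9. Leaving out 1 library gave 0 to 665 genes and 0 to 3 enzymes, and both highest values came without knockdown library 1 (RRM1, RRM2 and TK1). In the paired fit the count was 2171 genes with no filter and 590 with DESeq2, and 912 to 2296 genes when 1 pair was left out, with 2296 without pair 2. The count of enzymes called stayed between 4 and 6 under the other settings at a threshold of 0.05, and it was 0 at 0.01 and 6 at 0.1. The fits that leave out 1 pair have 2 pairs and little to estimate the spread from. The median of the 9 ran from -0.23 to -0.46 over all alternatives of both fits. Of 99 paired values of single enzymes under an alternative, 89 stayed on their side of the threshold, 7 lost their call (5 of them without the block, and TYMS at 2 settings) and 3 gained one (DUT). For RRM2B the paired value was -0.010 with total counts only and -0.092 to 0.085 when 1 pair was left out. The cause of these shifts was not tested. IMPDH2 and PAICS passed the threshold under none of these settings, which does not show that they did not change.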
